A study of Homo sapiens with 4 samples.

Results

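The regions described here are places near the ends of genes where the peaks of a pair of transcription factors fell on the same DNA. They were chosen from the measured peaks: an ATOH8 peak on chromosomes 1 to 22 or X was taken if at least 1 bp of it was also covered by a TCF3 peak and if its midpoint lay within 5 kb of either end of a protein-coding gene of the RefSeq annotation. Of 4951 ATOH8 peaks, 1252 met this rule (25.3%, Wilson 95% interval 24.1 to 26.5%), and they are called shared gene-end peaks. They touched 1244 of the 11330 TCF3 peaks, called their TCF3 partners. Of these partners, 23 were touched by more than 1 of the ATOH8 peaks, and 15 of the ATOH8 peaks touched more than 1 partner. Both the overlap and the distance to a gene end were part of the rule, so their numbers are descriptions.

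The peaks came from ChIP-seq, the sequencing of chromatin fragments recovered with an antibody, in the human prostate cancer line DU145, and the title of the series ties ATOH8 to ferroptosis and SCD. One library was made with Flag-tagged ATOH8 and 1 with Myc-tagged TCF3, each with an input library that was not analysed here. The sources used here do not say how the tagged proteins were introduced, at what level they were made or whether the cells were 1 clone. With 1 library per group there was no replicate error and no test was possible, so intervals cover the counting of peaks, genes or promoters only. Neighbouring peaks and overlapping promoters are not independent counts. The peak lists hold no expression values, so the identity of the line was not checked against marker genes.

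Basic helix-loop-helix (bHLH) proteins bind DNA as dimers, typically at short palindrome-like words called E-boxes, spelled CANNTG with N for any base. TCF3 is an E protein, a broadly expressed class that pairs with many tissue-restricted bHLH factors, and ATOH8 is a member of the atonal-related group of such factors. Many human promoters lie in CpG islands, stretches rich in G, C and CpG that often carry GC boxes, which are bound by SP and KLF family factors.

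The promoters of 6 genes are printed because each lies wholly inside the ATOH8 peak and wholly inside its TCF3 partner, and because their pairs have the lowest sums of ranks among promoters of this kind. Each runs 5′ to 3′ on the gene's own strand from 250 bases before the start to 50 bases after it (RefSeq, GRCh38.p14), with E-boxes in capitals. They are those of AKAP1 (chr17:57085506-57085805, plus strand), CFL2 (chr14:34714544-34714843, minus strand), OTULIN (chr5:14664468-14664767, plus strand), MED12L (chr3:151085414-151085713, plus strand), FOXN3 (chr14:89619116-89619415, minus strand) and USP10 (chr16:84699750-84700049, plus strand).
AKAP1: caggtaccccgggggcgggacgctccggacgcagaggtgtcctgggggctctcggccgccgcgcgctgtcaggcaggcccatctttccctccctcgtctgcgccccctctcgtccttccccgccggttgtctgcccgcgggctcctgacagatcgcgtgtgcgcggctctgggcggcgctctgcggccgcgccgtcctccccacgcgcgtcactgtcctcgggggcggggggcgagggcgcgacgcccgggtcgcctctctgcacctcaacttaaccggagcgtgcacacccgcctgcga
CFL2: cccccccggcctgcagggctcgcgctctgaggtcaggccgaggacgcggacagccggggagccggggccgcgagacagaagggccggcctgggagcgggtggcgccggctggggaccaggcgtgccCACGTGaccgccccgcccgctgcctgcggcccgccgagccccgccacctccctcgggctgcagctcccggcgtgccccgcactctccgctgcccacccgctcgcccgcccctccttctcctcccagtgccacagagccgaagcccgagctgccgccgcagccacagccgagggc
OTULIN: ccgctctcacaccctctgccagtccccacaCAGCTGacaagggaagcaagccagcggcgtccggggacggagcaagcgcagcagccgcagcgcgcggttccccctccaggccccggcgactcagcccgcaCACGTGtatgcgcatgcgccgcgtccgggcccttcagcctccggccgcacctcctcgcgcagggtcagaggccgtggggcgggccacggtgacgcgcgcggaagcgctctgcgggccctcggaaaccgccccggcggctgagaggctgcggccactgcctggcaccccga
MED12L: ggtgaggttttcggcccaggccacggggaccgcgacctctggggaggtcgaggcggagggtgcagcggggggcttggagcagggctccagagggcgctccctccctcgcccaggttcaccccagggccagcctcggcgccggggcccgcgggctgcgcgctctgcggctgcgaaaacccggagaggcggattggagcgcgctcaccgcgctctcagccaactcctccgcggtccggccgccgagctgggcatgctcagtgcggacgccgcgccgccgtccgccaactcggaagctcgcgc
FOXN3: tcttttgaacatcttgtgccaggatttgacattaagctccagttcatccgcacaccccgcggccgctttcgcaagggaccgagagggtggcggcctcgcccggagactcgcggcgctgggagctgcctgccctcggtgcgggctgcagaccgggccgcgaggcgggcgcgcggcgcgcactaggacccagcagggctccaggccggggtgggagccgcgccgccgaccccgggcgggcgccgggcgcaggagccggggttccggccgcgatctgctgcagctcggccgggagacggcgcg
USP10: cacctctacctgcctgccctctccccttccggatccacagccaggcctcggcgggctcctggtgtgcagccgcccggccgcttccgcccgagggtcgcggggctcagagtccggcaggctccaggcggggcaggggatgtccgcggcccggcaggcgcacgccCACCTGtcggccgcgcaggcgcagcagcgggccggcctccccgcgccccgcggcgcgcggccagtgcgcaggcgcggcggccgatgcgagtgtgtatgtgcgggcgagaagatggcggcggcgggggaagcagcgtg
USP10, a deubiquitinase, had an ATOH8 score of 156 and a TCF3 score of 178, and the pairs of the other 5 genes are described further on. Of the 6 windows, 3 held no E-box: those of AKAP1, MED12L and FOXN3. The CFL2 window held CACGTG at position -124 from the start, the OTULIN window held CAGCTG at -220 and CACGTG at -120, and the USP10 window held CACCTG at -87. GC content ran from 74.3% in FOXN3 to 79.3% in CFL2. The GC box GGGCGG, read on both strands, occurred 3 times in AKAP1 and in CFL2, 2 times in OTULIN and in USP10, once in FOXN3 and not in MED12L. A word found in a window is a description of the letters and not a bound site.

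The 2 peaks of a pair usually covered much of the same DNA. The median stretch in common was 564 bp (quartiles 403 to 810 bp, range 4 to 3079 bp), which was a median of 75.4% of the ATOH8 peak and of 84.0% of the TCF3 partner. The midpoints lay a median of 189 bp apart (quartiles 74.9 to 385 bp), and 653 pairs had midpoints within 200 bp (52.2%, 49.4 to 54.9%). In 968 pairs at least 50% of the ATOH8 peak was in common (77.3%, 74.9 to 79.6%), whereas only 16 pairs shared less than 100 bp (1.28%, 0.788 to 2.07%). The ATOH8 peak lay wholly inside its partner in 232 pairs (18.5%) and the partner wholly inside the ATOH8 peak in 361 (28.8%). The smallest overlaps were 4 bp at PPFIA1, 31 bp at ARC and 33 bp at HCN2. On the other side of the rule, the ATOH8 peaks nearest to a TCF3 peak without touching it were at YPEL5 (a gap of 2 bp), LRFN4 (27 bp) and YWHAG (33 bp). Such near misses were few: of 2539 ATOH8 peaks at gene ends without a TCF3 overlap, 61 had a TCF3 peak within 500 bp and 249 within 5000 bp.

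At the 5 kb limit, the last peaks inside lay 4953.5 bp from FBXO43 (ATOH8 score 151, TCF3 score 99), 4888.5 bp from TMEM250 (331 and 52) and 4861 bp from UVSSA (106 and 138). The first ones outside lay 5020 bp from ZNF800 (138 and 130), 5102 bp from ZNF574 (54 and 55) and 5139 bp from HIVEP1 (169 and 66). Few peaks lay near this limit: 68 of the 1252 lay more than 2 kb from the nearest gene end. The score is the authors' own number for a peak, of unstated definition, and is read only within its own list.

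ATOH8 scores of the shared gene-end peaks were like those of ATOH8 peaks at gene ends without TCF3, with medians of 86 and 85, and 173 shared peaks beyond 5 kb also had a median of 85. TCF3 scores stood apart more: the median was 75 over the partners, against 61 over 4286 TCF3 peaks at gene ends without ATOH8. Widths went the same way, with a median of 876 bp in shared gene-end peaks and 678 bp in ATOH8-only gene-end peaks, and of 803 bp in the partners and 735 bp in TCF3-only gene-end peaks. A wider peak has more room to touch another, and the part of width in these differences was not tested. Within the 1252 pairs the ATOH8 score said little of the TCF3 score (Spearman's rho 0.06 across pairs), and widths were weakly related (rho 0.25). Pairs share the library and local chromatin, so both coefficients are descriptions.

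**Figure D1:**
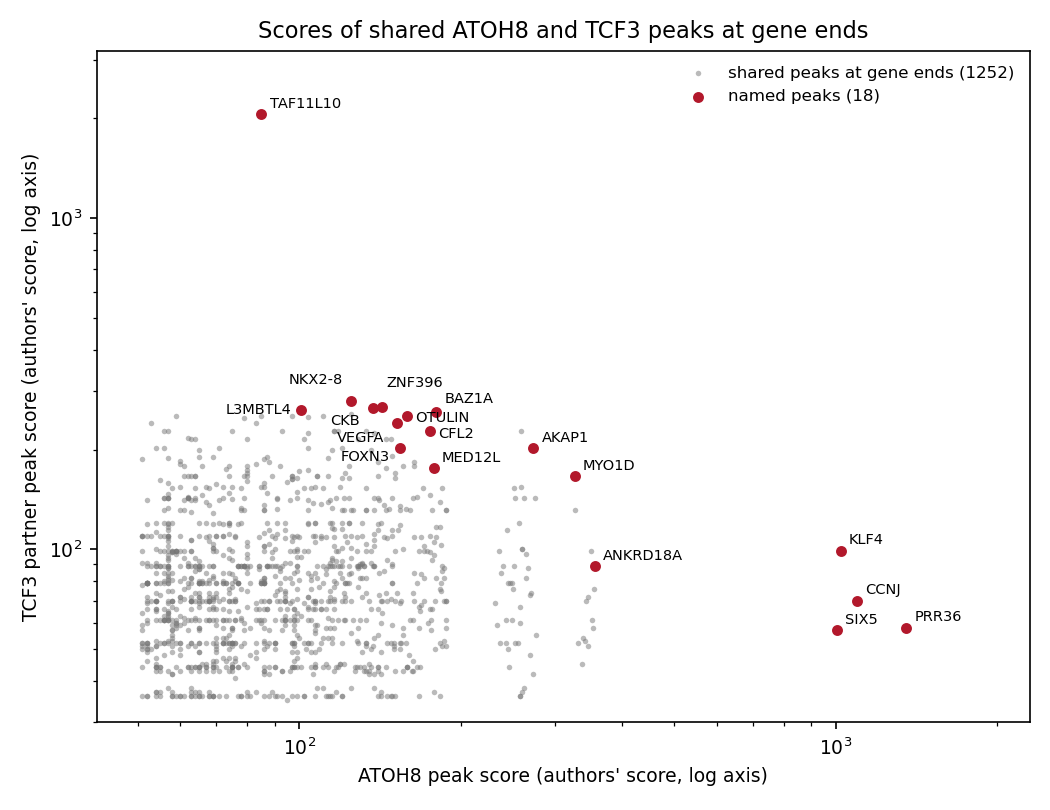
Authors' ATOH8 score (horizontal, log axis) and highest partner TCF3 score (vertical, log axis) of the 1252 shared gene-end peaks, with 18 peaks named by rank or score in red. The highest ATOH8 scores (PRR36, CCNJ, KLF4 and SIX5, 1005 to 1353) stood beside TCF3 scores of 57 to 99, and the highest TCF3 score (TAF11L10, 2062) beside an ATOH8 score of 85. The empty vertical bands are scores that no listed ATOH8 peak had, between 189 and 232, 280 and 326, and 356 and 996.

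The pairs that ranked best in both lists together lay at genes of varied roles. BAZ1A, a subunit of ISWI chromatin remodellers, had an ATOH8 score of 180 and a TCF3 score of 260 (ATOH8 peak chr14:34873806-34875288, hg38). At AKAP1, an anchor of protein kinase A on mitochondria, the scores were 273 for ATOH8 and 202 for TCF3 (chr17:57084838-57086360). Next came CFL2, a cofilin that severs actin filaments, and OTULIN, a deubiquitinase for linear ubiquitin chains. CFL2 had an ATOH8 score of 175 and a TCF3 score of 227 (chr14:34714116-34714964), and OTULIN had 159 and 253 (chr5:14664025-14665562). BAZ1A and CFL2 both lie on chromosome 14.

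They were followed by MYO1D, VEGFA, ZNF396, MED12L and FOXN3. MYO1D, an unconventional myosin, had the highest ATOH8 score of these genes at 326, beside a TCF3 score of 166 (chr17:32876371-32877430). VEGFA, the angiogenic growth factor, had the widest ATOH8 peak of them at 2224 bp (chr6:43770028-43772252), with scores of 152 for ATOH8 and 240 for TCF3. The ZNF396 peak scored 143 for ATOH8 and 268 for TCF3 (chr18:35376629-35377419), that of MED12L, a paralogue of a Mediator subunit, 178 and 176 (chr3:151085005-151086734), and that of FOXN3, a forkhead repressor, 154 and 202 (chr14:89618927-89619440). At FOXN3 the midpoints coincided, and 509 bp were in common in an ATOH8 peak of 513 bp.

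The 5 highest ATOH8 scores stood beside TCF3 scores of 57 to 99. KLF4, a zinc finger factor of stem and epithelial cells, had an ATOH8 score of 1021 over a peak of 2782 bp (chr9:107487702-107490484) and touched 2 TCF3 peaks, the higher of which scored 99. CCNJ, a cyclin, had an ATOH8 score of 1095 beside a TCF3 score of 70 (chr10:96042896-96044439). The peak with the highest ATOH8 score, 1353 beside a TCF3 score of 58, lay near the end of PRR36 that is not its start, and within 5 kb of EVI5L (chr19:7868398-7870116). The peak at SIX5, a homeobox gene, also lay near DMPK and MEIOSIN and scored 1005 for ATOH8 and 57 for TCF3 (chr19:45767704-45770567). ANKRD18A was the next, with 356 for ATOH8 and 89 for TCF3. Only 4 shared gene-end peaks had ATOH8 scores of 996 or more.

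For TCF3, the highest partner score was 2062 at TAF11L10, beside an ATOH8 score of 85 over 298 bp (chr5:17598935-17599233). TAF11L10 belongs to a family of near-identical copies, of which TAF11L9 lies within 5 kb, and the value is uncertain for that reason. The other 1251 pairs had partner scores of at most 280. That value was at NKX2-8, a homeobox gene, under a TCF3 peak of 5125 bp, with an ATOH8 score of 125. CKB, the brain-type creatine kinase, had a TCF3 score of 267 and an ATOH8 score of 137, and L3MBTL4, a protein with MBT repeats, had 264 and 101.

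Shared gene-end peaks lay at gene starts more often than the peaks of either factor alone. The strand of the nearest gene was known for 973 of them and was not used for any of the 76 on chromosome 8, and for 922 of these the nearest end was the start (94.8%, 93.2 to 96.0%). The share was 90.6% (89.3 to 91.8%) in 2053 ATOH8-only gene-end peaks, a difference of 4.11 percentage points (Newcombe interval 2.13 to 5.93), and 79.9% (78.5 to 81.3%) in 3284 TCF3-only gene-end peaks, a difference of 14.8 points (12.8 to 16.7). Within quartiles of ATOH8 peak width, from narrow to wide, the share was 93.1%, 97.2%, 95.7% and 93.3% for shared peaks, against 91.3%, 88.9%, 91.9% and 90.5% for ATOH8-only peaks. Shared peaks were the higher in all 4 quartiles, by least in the narrowest and the widest. The quartiles held 160, 217, 253 and 343 shared and 601, 560, 480 and 412 ATOH8-only peaks of known strand. No intervals were computed for the quartiles, so the smaller gaps may lie within counting error. Only 51 shared gene-end peaks with known strand were nearest to the other end of the gene (5.24%), PRR36 and CKB among them.

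The order by distance depended on the limit. Within 1 kb of the nearest end lay 84.8% of shared gene-end peaks, 80.5% of ATOH8-only and 64.1% of TCF3-only gene-end peaks. The differences were 4.36 points (1.79 to 6.82) and 20.7 points (18.2 to 23.1). Relative to the start, the midpoints of shared peaks lay a median of 278 bp inside the gene (quartiles 68.1 to 590 bp, n = 922), against 194 bp in ATOH8-only peaks (2 to 400 bp, n = 1861) and 327 bp in TCF3-only peaks (64 to 728 bp, n = 2625). Within 500 bp of the start, on either side, lay 66.3% of shared, 73.7% of ATOH8-only and 53.7% of TCF3-only peaks of known strand, so the shared peaks were behind the ATOH8-only ones there. The median distance to the nearest end was 347 bp for shared and 283 bp for ATOH8-only gene-end peaks. On the gene's side of the start lay 80.8% of shared, 75.1% of ATOH8-only and 78.7% of TCF3-only peaks. The shared peaks thus had a start as their nearest end more often than ATOH8-only peaks, but their midpoints lay further into the gene. Pairs of starts on opposite strands within 5 kb, as at divergent promoters, were near 104 shared peaks (8.31%), 277 ATOH8-only peaks (10.9%) and 256 TCF3-only peaks (5.97%). The difference between shared and ATOH8-only peaks was -2.60 points (-4.50 to -0.582). These shares are of all 1252, 2539 and 4286 gene-end peaks. Starts of unknown strand, as on chromosome 8, could not be counted as pairs, so the shares may be too low. The strand of the nearest gene was known for 77.7% of shared and 80.9% of ATOH8-only peaks.

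**Figure D2:**
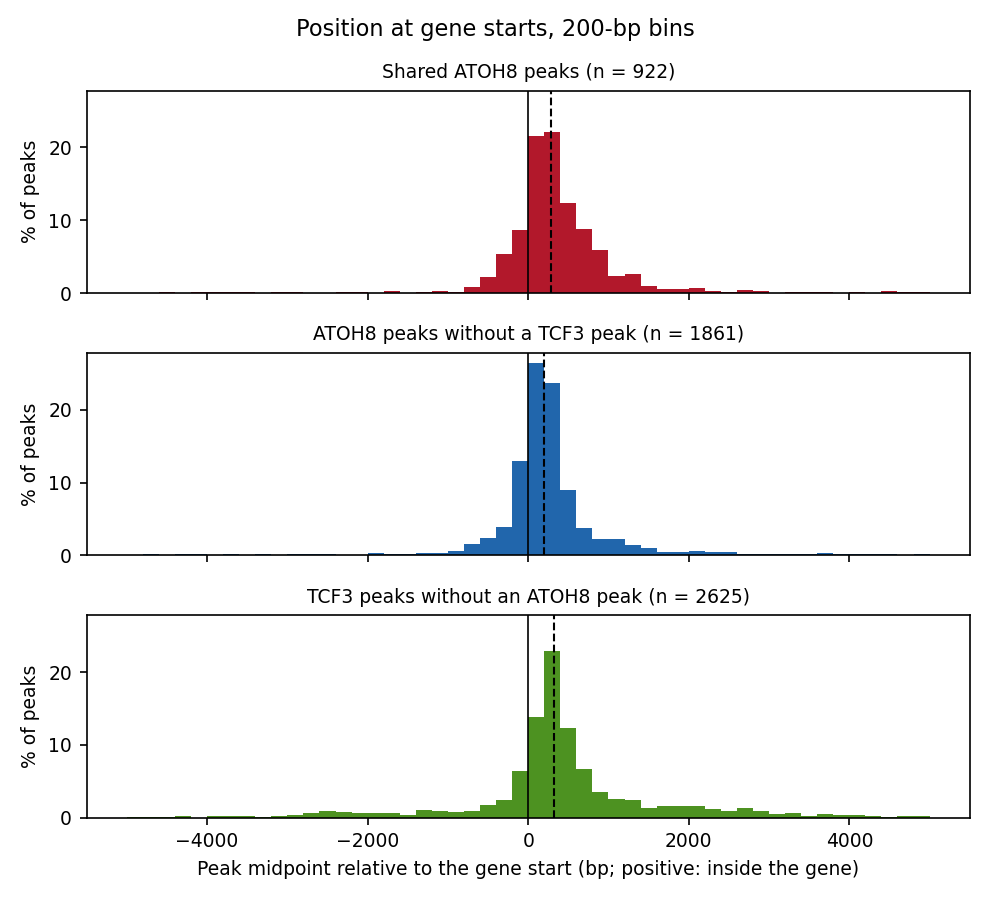
Distribution of the signed distance from peak midpoint to gene start (horizontal, bp, positive inside the gene) for shared, ATOH8-only and TCF3-only gene-end peaks, as the share of each set per bin, with the median as a dashed line. The medians were 278 bp for shared peaks, 194 bp for ATOH8-only peaks and 327 bp for TCF3-only peaks.

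How often an ATOH8 peak at a gene end was shared changed with its place and its width but hardly with its score. Over all 3791 such peaks, 33.0% were shared (31.5 to 34.5%), and of 1160 ATOH8 peaks beyond 5 kb, 14.9% were (13.0 to 17.1%). By distance the share was 28.5% of 1601 peaks within 250 bp of the end, 37.1% of 931 peaks from there to 499.5 bp, 45.5% of 573 peaks to 996.5 bp, 34.7% of 352 peaks to 2000 bp and 20.4% of 334 peaks further out. It was therefore highest between 501 and 996.5 bp and not at the end itself. By width quartile the share was 21.7%, 28.5%, 36.6% and 45.4% from narrow to wide. By quartile of ATOH8 score, from low to high, it was 32.6%, 32.2%, 32.4% and 34.9%, with overlapping intervals. Width moved with distance: the median ATOH8 peak width in the 5 distance bins was 703, 723, 888, 770 and 661 bp, highest in the bin with the highest share. Median width also rose over the score quartiles, from low to high 612, 703.5, 791 and 883.5 bp. The part of width in the patterns by distance and by score was not tested.

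**Figure D3:**
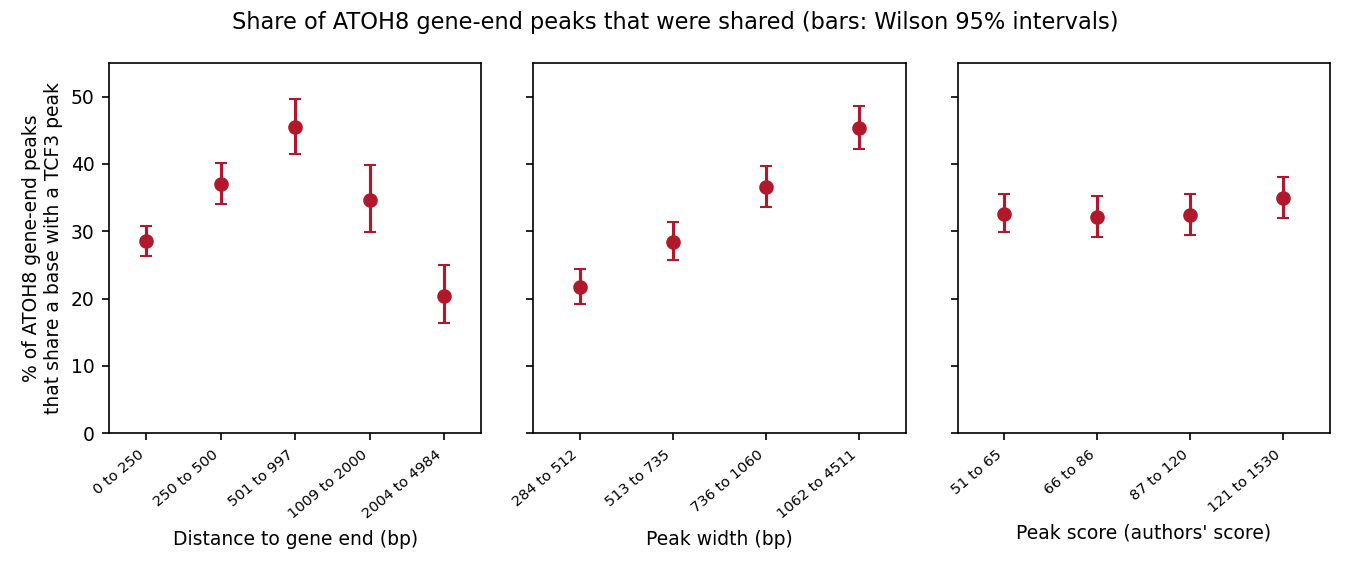
Share of ATOH8 gene-end peaks that touch a TCF3 peak (vertical, percent, with Wilson 95% intervals), by distance to the nearest gene end, by ATOH8 peak width and by ATOH8 score. The share was 45.5% in the third distance bin and ran from 21.7% in the narrowest to 45.4% in the widest quartile, while the score quartiles lay between 32.2 and 34.9%.

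Chromosomes differed in this share. It was highest on chromosome 18, with 33 of 66 ATOH8 gene-end peaks (50%, 38.3 to 61.7%). Chromosome 9 followed with 96 of 207 (46.4%, 39.7 to 53.2%) and chromosome 14 with 64 of 147 (43.5%, 35.8 to 51.6%), so the intervals of these 3 overlap. The share was lowest on X, with 2 of 22 (9.09%, 2.53 to 27.8%), and on chromosome 19, with 47 of 243 (19.3%, 14.9 to 24.8%). The density of TCF3 peaks moved with it in part: there were 118 TCF3 peaks per 100 protein-coding genes on chromosome 18, 76.2 on chromosome 9, 124 on chromosome 14, 5.90 on X and 27.4 on chromosome 19. Chromosome 14 thus had more TCF3 peaks per gene than chromosome 9, while their shares were alike within their intervals. The part of TCF3 peak density in the share was not tested.

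Counted by gene, 1539 of 19974 protein-coding genes (7.71%) had a shared peak within 5 kb of an end, 4543 (22.7%) any ATOH8 peak and 5689 (28.5%) any TCF3 peak. Of 1944 genes with peaks of both factors, 1533 (78.9%) had a shared peak among them, which leaves 411 genes with both factors and no peak in common. A single shared peak could serve several genes: 938 peaks lay near 1 gene, 271 near 2 and 43 near 3 or more. Conversely, 71 genes had 2 shared peaks and 2 genes had 3. The genes with 3 were the neighbours ACTG1, a cytoplasmic actin, and FSCN2, a fascin, which share the same 3 peaks, with ATOH8 scores of 97, 63 and 57.

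Ferroptosis is an iron-dependent death by lipid peroxidation, held back by enzymes that reduce lipid peroxides and by glutathione synthesis. Of 25 suppressors of ferroptosis, 6 had a shared peak (24.0%, 11.5 to 43.4%), beside 7.71% of all genes; 13 had any ATOH8 peak and 8 any TCF3 peak. They were HSPB1, a heat shock protein (ATOH8 score 133, TCF3 score 43), GCLC, the catalytic subunit of glutamate-cysteine ligase in glutathione synthesis (128 and 99), GPX4, the lipid peroxide reductase (111 and 38), MBOAT2, a phospholipid acyltransferase (65 and 120), NFE2L2 and CISD1. Of 22 promoters of ferroptosis, meaning genes that drive it, 5 had a shared peak (22.7%, 10.1 to 43.4%). Among these were ALOXE3, a lipoxygenase family enzyme (258 and 36), CHAC1, which degrades glutathione (183 and 36), POR, the cytochrome P450 reductase (179 and 50), and VDAC2, a channel of the outer mitochondrial membrane (129 and 52). The ALOXE3 peak is the same as that of its neighbour HES7. It lay 2942.5 bp from the ALOXE3 start, and the VDAC2 peak lay 3760.5 bp from the other end of VDAC2. Housekeeping genes, listed for comparison, had 5 of 22 (22.7%), among them HSP90AB1 (341 and 53), YWHAZ (122 and 79) and ACTB (120 and 202). The intervals of the 3 lists overlap. The lowest TCF3 partner score was 35, so the scores at GPX4, ALOXE3 and CHAC1 were near the floor. With the higher-ranked 50% of TCF3 peaks, 2 of 25 suppressors, 1 of 22 genes that drive ferroptosis and 2 of 22 housekeeping genes were counted. An overlap of 50% of both peaks left 3, 2 and 2.

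Of 33 genes that act in making fatty acids and sterols, 15 had an ATOH8 peak and 10 a TCF3 peak, but only INSIG1, which holds SREBP factors in the endoplasmic reticulum (79 and 166), and ELOVL5, a fatty acid elongase (62 and 166), had a shared one. That share of 6.06% (1.68 to 19.6%) was near the 7.71% of all genes. The desaturases FADS1 and FADS2 and the sterol enzyme LSS had both factors without a base in common. Of 15 genes of iron handling none had a shared peak, with 5 listed for ATOH8 and 2 for TCF3. The interval of that 0 reaches 20.4%, which includes the 7.71% of all genes.

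Among 27 bHLH activators and E proteins, 18 had a TCF3 peak and 6 an ATOH8 peak, and 3 had a shared one (11.1%, 3.85 to 28.1%), near the 7.71% of all genes. These were TWIST2 (97 and 70), TCF12, itself an E protein (86 and 154), and ATOH7, a retinal atonal factor (57 and 69). Of 16 ID and HES repressors, which oppose bHLH activators, HES7 (258 and 36) and HEY1 (121 and 61) had a shared peak (12.5%, 3.50 to 36.0%), while ID2 and HES1 had both factors apart. In BMP and SMAD signalling, 15 of 18 genes had a TCF3 peak, 7 an ATOH8 peak and 5 a shared one (27.8%, 12.5 to 50.9%). The receptor BMPR1A had scores of 83 for ATOH8 and 240 for TCF3, the secreted antagonist NOG 81 and 79, and the inhibitory SMAD7 106 and 70. The signal-carrying SMAD5 had 79 and 131, and SMAD1 57 and 114. These 5 genes cover a receptor, an extracellular antagonist, signal carriers and an intracellular inhibitor.

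Immediate early genes, which respond within minutes to growth factors and stress, had the highest share of the 15 lists, 8 of 23 (34.8%, 18.8 to 55.1%), with 15 listed for ATOH8 and 14 for TCF3. This rank held for overlaps of 1 bp or more: with an overlap of 50% of both peaks the count was 5 of 23, against 5 of 18 in BMP and SMAD signalling and 7 of 29 among actin regulators, and with midpoints within 200 bp it was 1 of 23. Beside KLF4, the genes counted in this list were the AP-1 subunits FOSL2 (168 and 65), JUN (164 and 70), FOSL1 (142 and 120) and FOS, and MCL1, DUSP1 and KLF6. Of 23 genes of the hypoxia response, 4 had a shared peak (17.4%, 6.98 to 37.1%). HIF1A, the oxygen-regulated subunit of the hypoxia factor, had scores of 159 and 44, VEGFA 152 and 240, PDK1, a kinase that inhibits pyruvate dehydrogenase, 54 and 37, and the glucose transporter SLC2A1 53 and 70. In the list for epithelial-mesenchymal transition 4 of 23 genes were counted: the junction proteins DSP (180 and 109), CLDN1 (142 and 36) and OCLN (88 and 36), and the repressor ZEB1 (62 and 61). CDK4 (110 and 52) and CDKN1B, the cyclin-dependent kinase inhibitor p27 (98 and 46), were counted of 20 cell cycle regulators, a share with an interval of 2.79 to 30.1%. The CDK4 peak lay 3112.5 bp from the gene start and the CDKN1B peak 3098.5 bp from the other end of its gene. With a gene-end window of 1 kb, 0 of the 20 were counted. The intervals of the hypoxia, transition and cell cycle lists include the 7.71% of all genes.

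Actin regulators and chromatin remodellers, classes to which 3 of the best-ranked genes belong, had 7 of 29 (24.1%, 12.2 to 42.1%) and 6 of 29 (20.7%, 9.85 to 38.4%). Beside them stand 7.71% of all genes and 22.7% of the housekeeping list (10.1 to 43.4%), whose interval overlaps both. Beside MYO1D and CFL2, the actin list held CFL1 (149 and 36) and ACTR2, a subunit of the Arp2/3 complex (140 and 66), and the chromatin list held BAZ1A, CHD3 (136 and 99), CHD7 (124 and 120) and ARID1B (94 and 59). Both lists were drawn up with the best-ranked genes known, so their counts are not independent of them. Of 34 translation initiation factors, 5 had a shared peak (14.7%, 6.45 to 30.1%), an interval that includes the 7.71% of all genes. They were led by EIF5A (185 and 86), EIF1 (100 and 81), EIF5 (73 and 54) and EIF3J (69 and 72). The peak scored here for EIF5A lay 2770 bp from the other end of the gene, and that for CFL1 lay 2655 bp from its start.

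**Figure D4:**
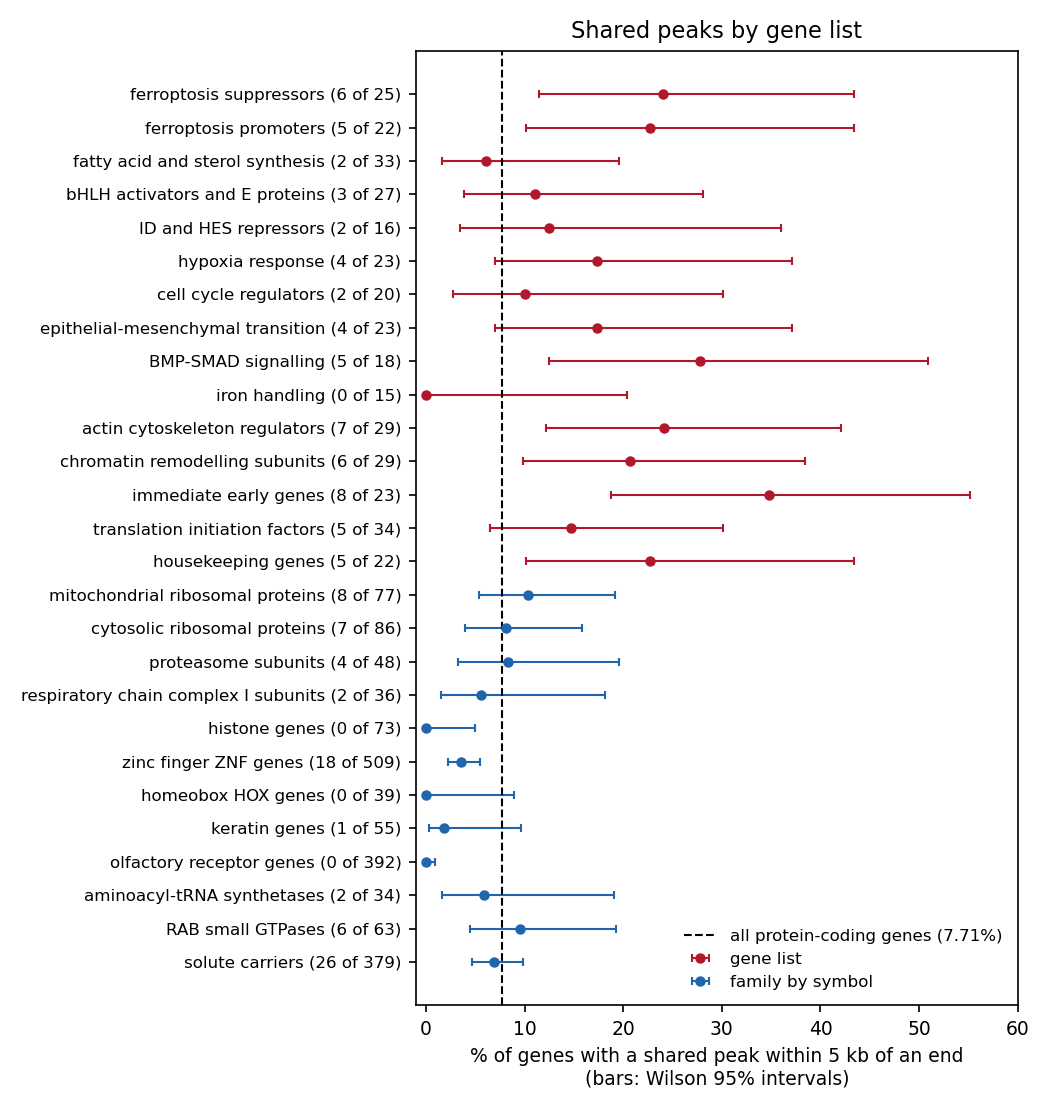
Percent of genes with a shared peak within 5 kb of an end (horizontal) for 15 gene lists (red) and 12 families taken by symbol (blue), with Wilson 95% intervals and the share of all protein-coding genes as a dashed line at 7.71%. With an overlap of at least 1 bp, immediate early genes had the highest share at 34.8%, and histone, HOX and olfactory receptor genes had none.

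In 3 of 12 large gene families no gene had a shared peak. Few genes of these families had both factors, and neighbouring genes can share a peak. Little can therefore be read from the contrast with the 78.9% of all genes with both factors that had a shared one. Of 73 histone genes, 26 had an ATOH8 peak and 22 a TCF3 peak, 6 had both and 0 had a shared one. Of 39 HOX genes, the homeobox genes of body axis patterning, 27 had a TCF3 peak, 6 an ATOH8 peak and 5 both, again with 0 shared, though the interval reaches 8.97% and includes the 7.71% of all genes. Olfactory receptor genes had 66 of 392 with TCF3, 2 with ATOH8, 1 with both and 0 shared. Zinc finger ZNF genes had 18 of 509 (3.54%, 2.25 to 5.52%), with ZNF341 the highest by ATOH8 score (337 and 45). Keratin genes had 1 of 55, KRT7 of simple epithelia (151 and 70). Mitochondrial ribosomal proteins (8 of 77), cytosolic ribosomal proteins (7 of 86), proteasome subunits (4 of 48), RAB GTPases (6 of 63) and solute carriers (26 of 379) all had intervals that span 7.71%.

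Promoter windows that the pairs overlapped were rich in G and C. GC content and words were read in these windows and not in the peaks themselves. Promoters on chromosome 8 were not analysed here. Of 22012 promoter windows of protein-coding genes, 709 windows of 622 genes were overlapped by both peaks of a shared pair, and their median GC content was 73.7% with 36 CpG. ATOH8-only windows had 69.3% and 30 CpG (n = 2341), TCF3-only windows 71.0% and 31 (n = 2232), and windows with neither 59.3% and 16 (n = 16666). The GC box GGGCGG stood in 87.6% of shared windows, in 80.8% of ATOH8-only, 75.8% of TCF3-only and 48.7% of windows with neither, and in 56.3% of all. Windows of alternative starts of a gene overlap each other. Of the 709 windows, 210 lay wholly inside both peaks. Among windows of 70 to 80% GC the GC box stood in 93.8% of shared, 93.0% of ATOH8-only, 90.7% of TCF3-only and 93.5% of windows with neither. Among windows of 60 to 70% GC it stood in 73.9% of shared, 75.8% of ATOH8-only, 68.0% of TCF3-only and 68.3% of windows with neither.

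**Figure D5:**
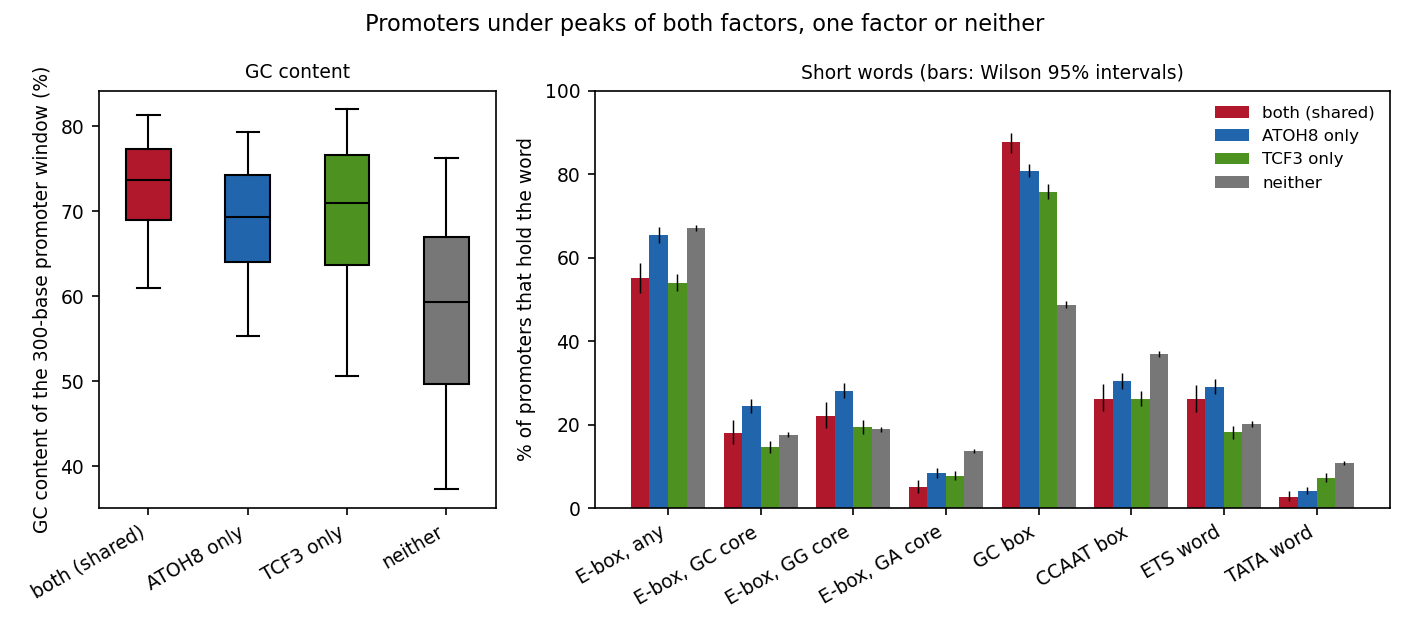
GC content of promoter windows under shared, ATOH8-only and TCF3-only peaks and under neither (boxes: quartiles and median; whiskers: 5th to 95th percentile), and percent of these windows that hold an E-box of any kind, 3 single E-box words named by their central bases, or another promoter word (bars, with Wilson 95% intervals as lines). Median GC content was 73.7% in windows that shared pairs overlapped and 59.3% in windows with neither. An E-box stood in 55.1% of the former and 67.1% of the latter.

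Over windows of any GC content, E-boxes were not more frequent in windows that the pairs overlapped than elsewhere. Any CANNTG stood in 55.1% of shared windows, in 65.4% of ATOH8-only windows, 53.9% of TCF3-only windows and 67.1% of windows with neither, and in 65.1% of all windows. Shared windows held one less often than ATOH8-only windows by -10.3 points (-14.4 to -6.18) and than windows with neither by -11.9 points (-15.7 to -8.21). In the band of 70 to 80% GC the share was 54.4% in shared, 63.0% in ATOH8-only, 46.5% in TCF3-only and 50% in windows with neither. Shared minus ATOH8-only was then -8.62 points (-14.2 to -3.04), shared minus TCF3-only 7.90 points (2.15 to 13.6) and shared minus neither 4.40 points (-0.776 to 9.49). In the band of 60 to 70% GC, any E-box stood in 60.1% of shared (n = 188), 67.3% of ATOH8-only, 61.9% of TCF3-only and 62.8% of windows with neither. Shared minus ATOH8-only was there -7.22 points (-14.9 to 0.161), shared minus TCF3-only -1.81 points (-9.81 to 5.91) and shared minus neither -2.69 points (-9.94 to 4.17). Shared windows were thus below ATOH8-only windows in both bands, with an interval that reaches past 0 in the lower one, while the sign against TCF3-only windows and against windows with neither differed between the bands.

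Single E-box words differed. CAGCTG, a palindrome, stood in 18.1% of shared, 24.3% of ATOH8-only, 14.6% of TCF3-only and 17.6% of windows with neither (18% of all). In the band of 70 to 80% GC it stood in 20.3% of shared windows, 6.38 points more than in windows with neither (2.54 to 10.7), 7.73 points more than in TCF3-only windows (3.51 to 12.3), and differed by -6.46 points from ATOH8-only windows (-11.0 to -1.59). In the band of 60 to 70% GC no such excess was seen: CAGCTG stood in 18.6% of shared, 22.8% of ATOH8-only, 18.1% of TCF3-only and 19.2% of windows with neither, and shared minus neither was -0.562 points (-5.60 to 5.70). CAGGTG, on either strand, stood in 22.1% of shared, 28.1% of ATOH8-only, 19.4% of TCF3-only and 18.8% of windows with neither (20.0% of all). Shared minus neither was 3.31 points (0.346 to 6.56) for this word. CAGATG, the word of many atonal-type factors, stood in 4.94% of shared, 8.37% of ATOH8-only, 7.80% of TCF3-only and 13.7% of windows with neither (12.2% of all). The gap to windows with neither was smaller within bands. At 70 to 80% GC CAGATG stood in 3.82% of shared, 6.52% of ATOH8-only, 5.70% of TCF3-only and 4.98% of windows with neither. At 60 to 70% GC the shares were 8.51%, 9.63%, 8.80% and 10.7% in the same order. At each of these 3 words the ATOH8-only windows, not the shared ones, had the higher share of the 2 ATOH8 sets. CACGTG stood in 10.7% of shared (8.65 to 13.2%), 11.4% of ATOH8-only and 8.65% of TCF3-only windows. In windows with neither it stood in 7.74% (7.34 to 8.16%). Its shares at 70 to 80% GC were 11.7%, 11.6%, 8.12% and 10.7% in the same order, and at 60 to 70% GC 10.1%, 11.6%, 10.9% and 10.0%.

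Other short words searched were those of general promoter factors. CCGGAA, the word of ETS factors, stood in 26.1% of shared, 29.1% of ATOH8-only, 18.1% of TCF3-only and 20.1% of windows with neither (21.1% of all). At 60 to 70% GC the shares were 27.7%, 33.5%, 18.8% and 28.9% in the same order, and at 70 to 80% GC 27.0%, 26.9%, 20.8% and 24.4%. CCAAT, bound by NF-Y, stood in 26.2% of shared, 30.4% of ATOH8-only, 26.2% of TCF3-only and 36.8% of windows with neither (34.7% of all). Its shares at 60 to 70% GC were 36.2%, 34.5%, 31.1% and 35.8% in the same order, and at 70 to 80% GC 22.4%, 25.7%, 21.2% and 26.6%. TATAAA stood in 2.68% of shared, 4.06% of ATOH8-only, 7.26% of TCF3-only and 10.9% of windows with neither (9.49% of all). In the band of 70 to 80% GC TATAAA stood in 2.63% of shared, 2.63% of ATOH8-only, 2.64% of TCF3-only and 1.55% of windows with neither, so the difference over all windows was not seen there. In the band of 60 to 70% GC it stood in 2.66% of shared (5 of 188), 3.04% of ATOH8-only, 6.83% of TCF3-only and 3.95% of windows with neither. The order over all windows for shared and TCF3-only windows was thus kept in that band. TGANTCA, the word of the AP-1 factors FOS and JUN, stood in 3.67% of shared, 3.50% of ATOH8-only, 3.41% of TCF3-only and 7.01% of windows with neither (6.16% of all). In the band of 70 to 80% GC it stood in 2.86% of shared, 2.04% of ATOH8-only, 3.38% of TCF3-only and 1.55% of windows with neither, the other way round between shared windows and those with neither. Its shares at 60 to 70% GC were 5.85%, 4.29%, 3.79% and 4.43% in the same order.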

How the data were processed

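The peak lists came from 1 ChIP-seq library of DU145 cells per factor (ATOH8 with a Flag tag, TCF3 with a Myc tag). Fixation was in 1% formaldehyde and lasted 10 min, per the labels' protocols. Each peak carries a score that the authors deposited. The genome build was hg38, per the submitters' processing notes. Aligner, peak caller, threshold, use of the input, definition of the score and coordinate base (0 or 1) were not given in the sources used here. Depth is unknown. The lists have 3 (ATOH8) and 5 (TCF3) lines that hold no peak, and some score ranges are empty. Any peaks with such scores were not analysed here. Promoters on chromosome 8 were not used, so its 76 members enter no promoter result. Among the strand results they enter only the total to which pairs of starts on opposite strands were set.

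Peak midpoints were set against the ends of 19974 protein-coding genes of the RefSeq annotation (GRCh38.p14). The strand came from the RefSeq promoter table, which matched 15812 genes. A peak in several overlaps took the highest TCF3 score. A promoter window was assigned to a set by overlap with its peaks; words were searched on both strands. Shares have Wilson and differences Newcombe 95% intervals. No test was run, because each group had 1 library. The members, 15 gene lists and 12 families were chosen with earlier results of these data known. Named genes are the 10 pairs with the lowest rank sum, the 5 highest scores per factor, up to 4 genes per list by ATOH8 score, 3 peaks on each side of 5 kb, 6 printed promoters and the genes with most shared peaks. Other list members, genes with both factors apart and the highest gene of a family were named after their values were seen. A few of the genes this rule selects are left out of the text. The scripts were tested on simulated data. Python 3.11.15, numpy 2.4.6, pandas 2.3.3, scipy 1.17.1 and matplotlib 3.10.9 were used.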

Additional observations from a re-analysis of the deposited data

How the results depend on the processing

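Counts followed the definition of a shared peak. The 1252 peaks, 1539 genes, 63 list genes and the 189 bp offset became 763 peaks, 942 genes, 36 list genes and 107.5 bp when the overlap had to be 50% of both peaks. With midpoints within 200 bp they were 653 peaks, 843 genes, 26 list genes and 79 bp, and the share at gene starts was 96.3% in place of 94.8%. With a gene-end window of 1 kb that share was 97.7%. The higher-ranked 50% of ATOH8 peaks gave 665 peaks and 838 genes. The higher-ranked 50% of TCF3 peaks gave 829 peaks, 1000 genes, 40 list genes and 96.6% at starts. The share of promoters with an E-box was 55.1%, against 59.0% for windows wholly inside both peaks, 60.1% for windows of 60 to 70% GC and 37.2% for CAGCTG or CAGGTG alone, which 34.0% of all windows held. Leaving out the top 1% of scores gave 1228 peaks and 1513 genes. The GC bands and the width quartiles were chosen after seeing the data. No paired analysis was possible because each group had 1 library. A gene without a listed peak is not shown to be unbound.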

Other observations

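Hairpins of 12 microRNAs overlapped the ATOH8 peak of a shared pair, and 8 of these overlapped the TCF3 partner too. The share over all hairpins was not computed, so both counts are descriptions. MIR4515 and MIR3197 lay only partly inside the ATOH8 peak. MIR4651 lay at POR under peaks with scores of 179 for ATOH8 and 50 for TCF3, and MIR3960 at CDK9 under peaks with scores of 153 and 114. MIR200C, of the family that targets ZEB factors, lay under an ATOH8 peak scoring 75 at PTPN6 but outside its TCF3 partner. The RefSeq table held 10 mature forms, which came from only part of the 12 hairpins and had 10 different seeds. None was held for MIR200C, MIR3960, MIR4515, MIR3197 or MIR6821. These genes were named after their values were seen.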
